A study of Mus musculus with 47 samples.

Results

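The genes followed here, 10 in all, mark the mural cells of blood vessels and were measured in bulk RNA of the mouse hippocampus: Acta2, Myh11 and Tagln of vascular smooth muscle, Pdgfrb, Rgs5, Vtn, Higd1b, Anpep and Abcc9 of pericytes, and Notch3 of both. They were taken by name from the count table, so 10 of its 35486 genes were members, and all 10 had enough reads to be tested among 17778 genes. The 47 libraries each came from the hippocampus of 1 male C57BL/6J mouse given systemic injections of the chemokine platelet factor 4 (PF4) or of vehicle (Veh), and the mice had been through behavioural tests before the tissue was frozen. The groups were Young Veh (n = 13), Young PF4 (n = 12), Old Veh (n = 12) and Old PF4 (n = 10), aged 3.75 to 5.26 months (Young) and 17.4 to 20.23 months (Old). The labels name no allele or transgene, and no group alters the PF4 that the mice make themselves. Library totals ran from 2242879 to 21112908 reads (median 10374007). A set of 8 libraries (1 Young Veh, 2 Young PF4, 4 Old Veh and 1 Old PF4) had at most 4963272 reads and the other 39 at least 5216474. Results were recomputed without these 8 where that mattered.

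Mural cells wrap the endothelial tube. Pericytes lie along capillaries inside the basement membrane that they share with the endothelium, and in brain they help to keep the blood-brain barrier closed. Smooth muscle cells ring arteries and arterioles and set their calibre with a contractile apparatus of actin and smooth muscle myosin. Endothelial PDGF-B holds pericytes through their receptor Pdgfrb, and Notch3 keeps arterial smooth muscle differentiated. In whole tissue, fewer cells of a type and less RNA per cell cannot be told apart.

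Old mice had lower levels of the contractile genes Acta2 and Tagln than Young mice. Over both treatments, Acta2 fell by 33.8% and Tagln fell by 31.8%, while Myh11 showed a difference of the same sign that did not pass the test. Fibroblast, meningeal and choroid plexus markers had differences of the same sign. Neither Acta2 nor Tagln was called with the fibroblast and meninges list or the choroid plexus list in the fit, where 601 and 658 of all genes were called. With the library number, which could not be separated from age, 0 of all genes were called, so that fit cannot decide for Acta2 or Tagln. Tagln was also not called in 26 of 47 fits that left out 1 library. Rgs5, a pericyte gene, went the other way in vehicle mice, with a level 1.22-fold higher in Old Veh than in Young Veh. That call was lost without the 8 libraries of low depth (log2 fold change 0.21, adjusted p = 0.128), and the value was -0.092 with the library number in the fit. The other pericyte genes lay on both sides of 0 in vehicle mice and were not called. Their log2 fold changes were -0.13 (Pdgfrb), -0.15 (Vtn), -0.34 (Anpep), 0.21 (Abcc9) and 0.0051 (Higd1b). No member differed between PF4 and Veh at either age after adjustment. Every comparison across genes used the quasi-likelihood test of edgeR, p-values were adjusted over the 17778 genes by the method of Benjamini and Hochberg, and a gene was called when its adjusted p was below 0.05. Levels are CPM values, read counts relative to the library total, scaled by TMM factors, and the plot of the 10 genes by mouse shows all of them.

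**Figure D1:**
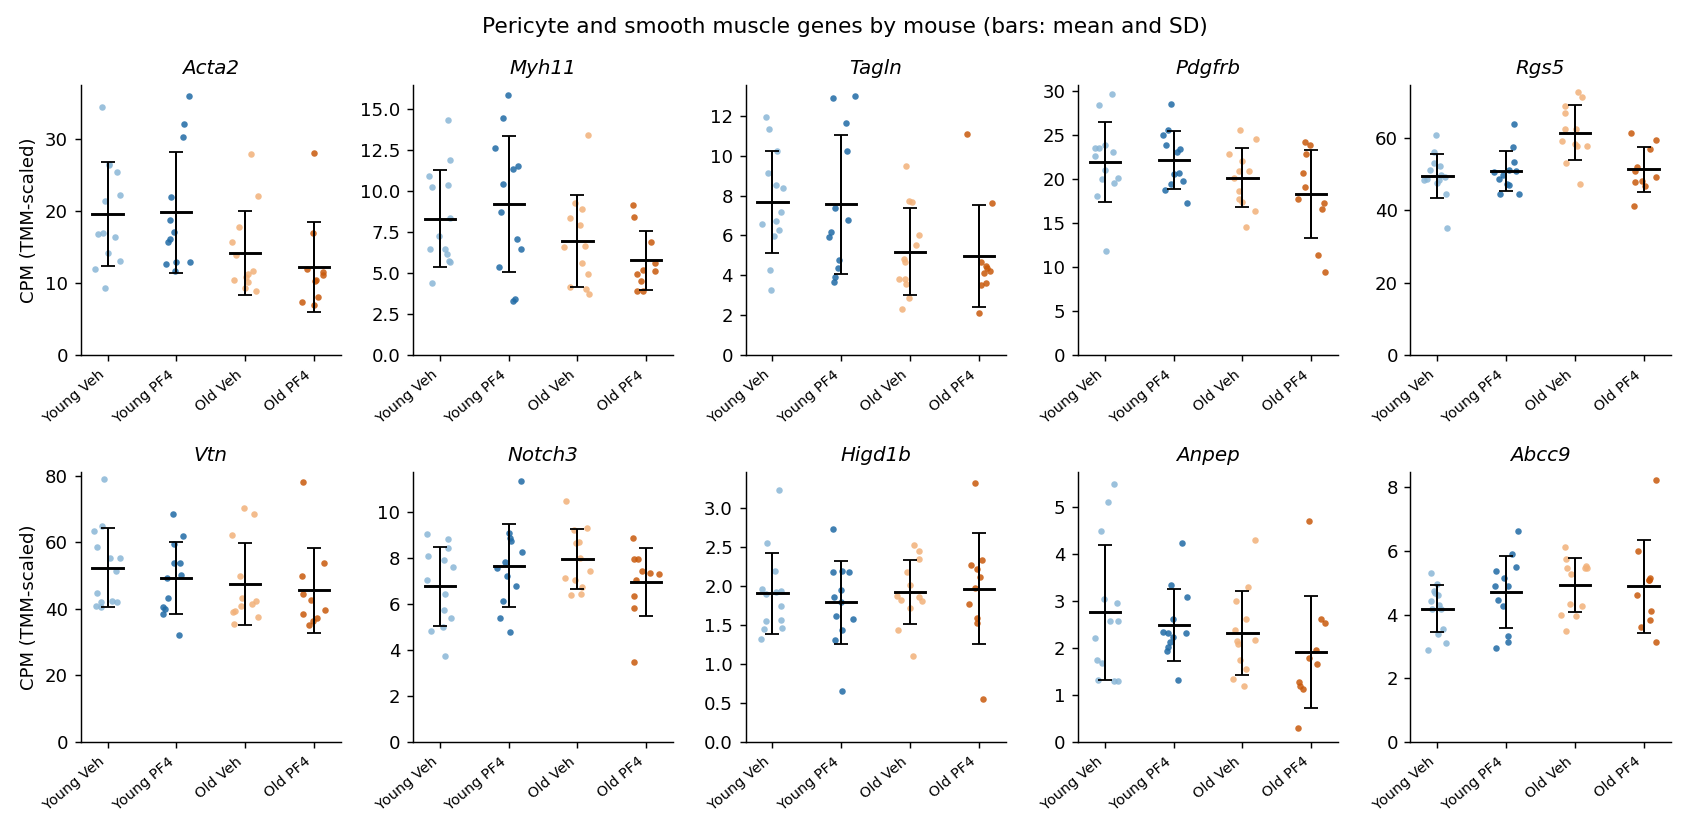
Level of each of the 10 genes in CPM (linear axis from 0) in every mouse, by group, with the mean and the standard deviation (SD) as black bars. Acta2 and Tagln lie lower in both Old groups than in both Young groups with wide overlap, and Rgs5 is highest in Old Veh, where 6 of 12 mice exceed every Young Veh mouse.

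Compared per kilobase of merged exon, the 10 genes covered a wide range of levels. Median CPM per kilobase over all libraries was 21.3 for Vtn, 11.2 for Rgs5, 6.44 for Acta2, 3.79 for Pdgfrb, 3.00 for Tagln, 2.21 for Higd1b, 0.919 for Notch3, 0.877 for Myh11, 0.553 for Abcc9 and 0.535 for Anpep. Several neighbours in this order were not separated, since their ranges across libraries contained each other's medians. This held for Pdgfrb (1.74 to 5.43) and Tagln (1.07 to 6.54), for Tagln and Higd1b (0.650 to 3.93), for Notch3 (0.430 to 1.40) and Myh11 (0.435 to 2.08), for Myh11 and Abcc9 (0.344 to 0.982), and for Abcc9 and Anpep (0.0712 to 1.33). Higd1b and Anpep were also thin in reads, with medians of 18 and 20 per library. The 3 smooth muscle genes and Anpep varied more between mice of a group than nearly all genes: their biological coefficients of variation were 35.9% (Acta2), 35.1% (Myh11), 36.9% (Tagln) and 36.1% (Anpep), against a median of 12.1% over the genes tested. Rgs5 was the steadiest member at 10.7%. Acta2 had 32 to 546 reads per library and Rgs5 79 to 1128.

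Acta2 encodes smooth muscle alpha-actin, the main actin of the arterial contractile filament. In GRCm38 it is the minus-strand gene at chr19:34241090-34255590. Its level in Young Veh was 9.27 CPM in the lowest mouse, 17.0 at the median and 34.5 in the highest, and in Young PF4 it was 11.7, 16.6 and 36.1. Old Veh mice had 8.86, 11.5 and 27.9, and Old PF4 mice had 6.96, 10.8 and 28.03. The ranges of Old and Young overlapped, with 4 of 22 Old mice below every Young mouse and 17 of 22 below the Young median of 17.0. Means were 13.3 ± 5.95 (SD, n = 22) in Old and 19.7 ± 7.65 (SD, n = 25) in Young mice. The log2 fold change, Old against Young over both treatments, was -0.60 (standard error 0.16, adjusted p = 0.0178). In vehicle mice alone it was -0.52 (standard error 0.22), which did not pass (adjusted p = 0.217). The call held with each of the 47 libraries left out in turn, with values from -0.70 to -0.53, and without the 8 libraries of low depth (-0.64, adjusted p = 0.036). The difference was -0.51 within the 8 libraries of low depth and -0.63 within the other 39, as differences of mean log2 CPM.

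Tagln encodes transgelin, an actin-binding protein of differentiated smooth muscle, at chr9:45929619-45936058 on the minus strand. Its lowest, median and highest levels were 3.29, 7.16 and 11.9 CPM in Young Veh and 3.68, 6.47 and 13.0 in Young PF4. They were 2.30, 4.74 and 9.50 in Old Veh and 2.12, 4.29 and 11.1 in Old PF4. Again the groups overlapped, with 17 of 22 Old mice below the Young median. The log2 fold change over both treatments was -0.55 (standard error 0.17, adjusted p = 0.0442), close enough to the threshold that it passed in 21 of the 47 fits that left out 1 library (adjusted p from 0.0108 to 0.0735). It was -0.56 (adjusted p = 0.202) in vehicle mice. Without the 8 libraries of low depth the fold change was -0.54 and no longer passed (adjusted p = 0.101). As differences of mean log2 CPM, Old against Young was -1.08 within those 8 (5 Old, 3 Young) and -0.56 within the other 39. Tagln shares 3627 bases with Gm48529, an antisense gene whose total of 2626 reads was near the 2913 of Tagln and whose log2 CPM followed it with r = 0.98. The library kit did not mark strand, so reads of the pair cannot be told apart. Gm48529 itself had a fold change of -0.57 (adjusted p = 0.0395) over both treatments. A further 108 bases of Tagln lie in Pcsk7.

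Myh11 encodes the smooth muscle myosin heavy chain, the motor that pulls on alpha-actin, and is a closely restricted marker of the contractile state. It lies at chr16:14194535-14291372 on the minus strand. Lowest, median and highest levels were 4.36, 7.23 and 14.3 CPM in Young Veh, 3.30, 9.58 and 15.8 in Young PF4, 3.74, 6.64 and 13.4 in Old Veh, and 3.91, 5.15 and 9.16 in Old PF4. Of 22 Old mice 16 were below the Young median of 8.34 CPM. The log2 fold change over both treatments was -0.49 (standard error 0.16), just outside the threshold (adjusted p = 0.0632). In vehicle mice it was -0.33 (standard error 0.22, adjusted p = 0.485).

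The count of members called can be read against all genes. Over both treatments 2 of 10 members were called and both were lower in Old, where 4.71% of all genes tested were called in either direction and 1.41% were called lower. None was called higher (3.31% of all genes). At an unadjusted p below 0.05, 5 members were lower, beside 8.86% of all genes, and 1 was higher, beside 10.1%. In Old Veh against Young Veh 1 of 10 members was called, beside 2.77% of all genes, and 3 had an unadjusted p below 0.05, beside 15.2%. The median log2 fold change of the 10 members over both treatments was -0.16, against -0.0041 over all genes.

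**Figure D2:**
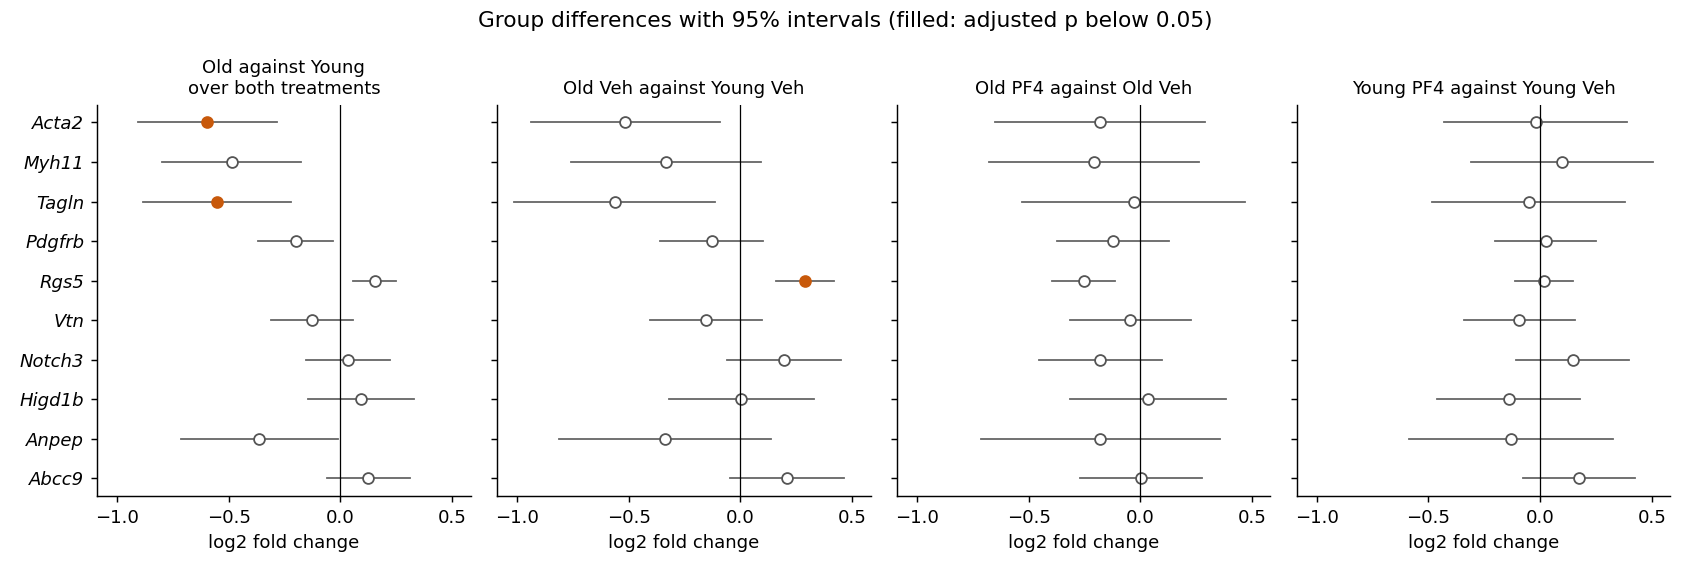
Log2 fold change of each gene in 4 comparisons, with 95% intervals from the standard errors. Filled points, Acta2 and Tagln over both treatments and Rgs5 in Old Veh against Young Veh, have an adjusted p below 0.05, and no member is filled in the PF4 comparisons.

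Promoter sequence of Acta2 and Rgs5, the members with the lowest adjusted p in either direction, is shown so that it can be read beside these values. Acta2 is a classical target of serum response factor, which binds the CArG box: CC, then 6 bases of A or T, then GG. RefSeq windows (GRCm38.p6) of 250 bases before to 50 after the start were at hand for 6 of the 10 members (Rgs5, Abcc9, Anpep, Vtn, Notch3 and Acta2). The RefSeq start is not always that of the GENCODE gene model whose coordinates are given here. For Rgs5 both are base 169655501, but for Acta2 the RefSeq start (34255373) lies 217 bases downstream of the GENCODE start, and for Anpep it lies 12849 bases downstream. Positions are counted from the RefSeq start. For Acta2 the 30 bases around each of 2 sites are shown (chr19:34255438-34255467 and chr19:34255388-34255417, minus strand), and for Rgs5 the whole window (chr1:169655251-169655550, plus strand). Capitals mark CArG boxes with 1 inner base that is not A or T in Acta2 and the E-box in Rgs5.
Acta2, upstream site: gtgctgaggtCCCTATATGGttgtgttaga
Acta2, downstream site: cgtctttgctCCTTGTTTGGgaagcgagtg
Rgs5: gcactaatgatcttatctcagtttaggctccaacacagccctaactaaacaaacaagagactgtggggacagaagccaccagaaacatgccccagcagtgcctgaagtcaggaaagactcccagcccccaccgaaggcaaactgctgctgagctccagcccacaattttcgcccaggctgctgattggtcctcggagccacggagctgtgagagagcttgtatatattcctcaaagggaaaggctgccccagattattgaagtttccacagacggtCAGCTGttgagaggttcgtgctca
The Acta2 boxes, CCCTATATGG and CCTTGTTTGG, begin at -84 and -34, counting the RefSeq start as +1. No exact CArG box was found in any of the 6 windows on either strand. A box with 1 inner mismatch was found in Acta2 alone among the 6, and in 9.98% of 32851 promoter windows of the same length (1.63% held an exact box). TGGGAA, the core that the Notch partner Rbpj binds, was found in Acta2, Vtn and Abcc9 and in 25.6% of all windows. In Acta2 it begins at -27 and overlaps the second CArG box. Rgs5 held neither, nor TATAAA (13.6% of windows) or GGGCGG (35.7%), and 1 E-box of the form CANNTG (72.3%), CAGCTG at +27. These matches describe the letters only.

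Genes that act with the contractile members were read as a list of 18 further smooth muscle genes, of which 15 could be tested. Over both treatments 1 was called, Myl9, the regulatory myosin light chain, with a log2 difference of -0.33 (standard error 0.097, adjusted p = 0.0364). That 1 of 15 stands beside 1.41% of all genes called lower. Of the 15, 6 were lower at an unadjusted p below 0.05, beside 8.86% of all genes, and 1 was higher, beside 10.1%. The median of the list was -0.18, with 12 of 15 below 0, against 52.0% of all genes. Tpm1 and Cald1, a tropomyosin and caldesmon that many cell types express, were the most abundant, at -0.030 and -0.043. Among 18 further pericyte genes none was called, with 3 lower and 1 higher at an unadjusted p below 0.05, beside the same 8.86% and 10.1%. Their median was -0.070, with 13 of 18 below 0, against 52.0% of all genes. The most abundant of these were Slc6a20a, a proline transporter that meninges and choroid plexus also express (-0.50, adjusted p = 0.192), and P2ry14, a purinergic receptor (0.089, adjusted p = 0.644). Kcnj8, which forms with Abcc9 the ATP-sensitive potassium channel of pericytes, was at -0.035 (adjusted p = 0.888), and Cspg4, the NG2 proteoglycan shared with oligodendrocyte precursors, at -0.030 (adjusted p = 0.912). These 2 were chosen for their pairing with a member and for common use, after their values were seen.

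Markers of neighbouring tissue had age differences of the same sign as Acta2 and Tagln. All 11 tested genes of a fibroblast and meninges list were below 0 over both treatments, against 52.0% of all genes, with a median of -0.51. Of the 11, 2 were called, beside 1.41% of all genes called lower. They were Col1a1 (-0.66, adjusted p = 0.0149) and Col1a2 (-0.74, adjusted p = 0.0352), the chains of type I collagen. Col1a1 was also called in Old Veh against Young Veh (-0.88, adjusted p = 0.0301). The most abundant genes of the list, Dcn (decorin) and Igf2, were at -0.12 and -0.63 and were not called. The list's summed level ran from 90.6 to 369 CPM in Young Veh (median 184) and 87.7 to 284 in Young PF4 (186), against 59.9 to 282 in Old Veh (126) and 90.9 to 314 in Old PF4 (123). Choroid plexus genes, 10 of 10 below 0 with a median of -0.98, had median sums of 1943 CPM in Young Veh and 2380.1 in Young PF4, but 47.1 in Old Veh and 65.9 in Old PF4. Their range within each group was far wider (12.0 to 4259 CPM in Young Veh, 94.0 to 3448 in Young PF4, 15.1 to 4259 in Old Veh and 25.9 to 3280 in Old PF4), and none was called, Ttr and Clic6 included (-1.07 and -1.06). All 4 tested perivascular macrophage genes were below 0 (median -0.53), none called, with Mrc1 at -0.47 and F13a1 at -0.46. Endothelial genes had smaller values. None of 12 was called, the median was -0.060, and 10 of 12 were below 0, against 52.0% of all genes. The most abundant, the glucose transporter Slc2a1 and the VEGF receptor Flt1, were at -0.13 and -0.068. No marker of these lists was at 0 in every library.

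These marker levels were then entered in the fit 1 list at a time, as the mean log2 CPM of the list in each library. With the fibroblast and meninges list, the age difference over both treatments became -0.25 in Acta2 (adjusted p = 0.196), -0.20 in Tagln (0.388) and -0.13 in Myh11 (0.639). With the choroid plexus list the values were -0.47 (adjusted p = 0.103), -0.39 (0.212) and -0.39 (0.213), and with the endothelial list -0.47 (0.00939), -0.43 (0.0278) and -0.34 (0.0873). So the calls of Acta2 and Tagln held with the endothelial list and were lost with either of the other lists. Rgs5 was close to its value without a list in all 3 fits, at 0.15 to 0.17. The lists follow both age and the contractile genes, and their part in the age difference was not tested further.

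**Figure D3:**
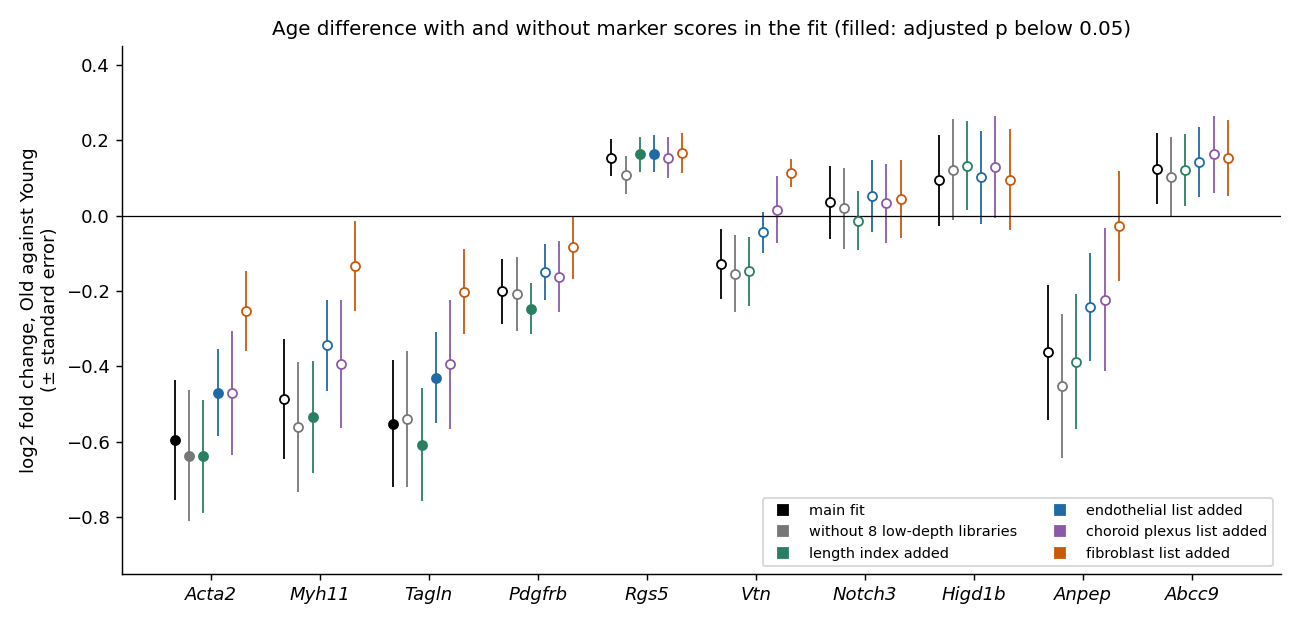
Log2 fold change of Old against Young over both treatments for each gene, with its standard error, as fitted, without the 8 libraries of low depth, or with the length index or 1 of 3 marker lists added. The fit with the library number, where Rgs5 is at -0.19, is not drawn. Filled points have an adjusted p below 0.05. The fibroblast list brings Acta2 from -0.60 to -0.25 and Tagln from -0.55 to -0.20, and in the fits drawn Rgs5 lies between 0.11 and 0.17.

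Rgs5 encodes a regulator of G protein signalling that is among the most abundant transcripts of brain pericytes, and lies at chr1:169655501-169695813 on the plus strand. Its lowest, median and highest levels were 34.9, 49.1 and 60.8 CPM in Young Veh and 44.3, 50.03 and 63.8 in Young PF4. Old Veh mice stood at 47.2, 60.8 and 72.6, and Old PF4 mice at 41.1, 49.97 and 61.3. Thus 6 of 12 Old Veh mice exceeded all 13 Young Veh mice and 11 of 12 exceeded the Young Veh median, while Old PF4 mice lay in the range of the Young groups. Means were 61.4 ± 7.53 (SD, n = 12) in Old Veh and 49.5 ± 6.04 (SD, n = 13) in Young Veh. The log2 fold change was 0.29 (standard error 0.066, adjusted p = 0.00728), and it was called with each of the 25 libraries left out in turn (0.27 to 0.33). Over both treatments the difference was 0.15 (standard error 0.049) and did not pass (adjusted p = 0.0545), although it did in DESeq2 (adjusted p = 0.0388).

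The Rgs5 value differed with the libraries and terms in the fit. Without the 8 libraries of lowest depth, Old Veh exceeded Young Veh by 0.21 and the call was lost (adjusted p = 0.128). As plain means with the treatments pooled, log2 CPM was 0.50 higher in Old than in Young among those 8 libraries (5 Old, 3 Young). It was 0.10 higher among the other 39. Of the 5 Old libraries 4 were Old Veh and 1 was Old PF4. The 3 Young included Young Veh replicate 13, the lowest library of all at 34.9 CPM. Depth, treatment and single libraries therefore cannot be told apart in these 2 values. A length index, the mean centred log2 CPM of genes with long transcripts minus that of genes with short ones, was added to the fit as a sign of RNA quality after the data were seen. Its median was 0.042 in Old Veh and between 0.0030 and 0.0088 in the other groups. With it the Rgs5 difference in vehicle mice was 0.32 (adjusted p = 0.00231), and over both treatments Acta2, Tagln, Myh11, Pdgfrb and Rgs5 were all called (5 of 10 members, beside 1398 genes in place of 838). The order of library numbers could not be separated from age, since numbers 1 to 23 were Old and 24 to 48 Young. With that number in the fit 0 genes were called in either age comparison (983 at an unadjusted p below 0.05 over both treatments), and the Rgs5 value in vehicle mice was -0.092.

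The remaining members showed no called difference with age. Pdgfrb, the PDGF-B receptor (chr18:61045150-61085061, plus strand), had medians of 22.7 CPM in Young Veh, 21.9 in Young PF4, 20.6 in Old Veh and 18.5 in Old PF4, and an age difference of -0.20 over both treatments (95% interval -0.37 to -0.032, adjusted p = 0.179). Anpep, aminopeptidase N (chr7:79821803-79861059, minus strand), had medians of 2.58, 2.32, 2.16 and 1.72 CPM in the same order and a difference of -0.36 (interval -0.71 to -0.011, adjusted p = 0.260). Both intervals lay below 0 before adjustment. Vtn, vitronectin, which pericytes secrete into the basement membrane (chr11:78499091-78502324, plus strand), had medians of 51.3, 49.7, 41.8 and 41.04 CPM and a difference of -0.13 (interval -0.31 to 0.055). Its value in vehicle mice was -0.15, and with the fibroblast list in the fit that became 0.14. Notch3, the Notch receptor of smooth muscle and pericytes (chr17:32120820-32166852, minus strand), had medians of 7.05, 7.67, 7.72 and 7.33 CPM and a difference of 0.035 (interval -0.15 to 0.22). It shares 21024 bases with the antisense gene Gm17276, whose total was 681 reads against 3438. Abcc9, the sulphonylurea receptor of the pericyte potassium channel (chr6:142587862-142702315, minus strand), had medians of 4.31, 4.90, 5.36 and 4.86 CPM and a difference of 0.12 (interval -0.060 to 0.31). Antisense 5330439B14Rik inside Abcc9 had 20 reads in all and Gm44974 inside Anpep 3. Higd1b, a mitochondrial membrane protein concentrated in pericytes (chr11:102835849-102838040, plus strand), had medians of 1.90, 1.83, 1.86 and 2.05 CPM and a difference of 0.093 (interval -0.14 to 0.33). For these last 3 genes the intervals allow changes of up to 0.22, 0.31 and 0.33 on the log2 scale, which these data could not tell from 0.

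PF4 was compared with vehicle within each age, which asks whether injected PF4 altered mural transcripts. In Old mice 0 of 10 members were called, beside 0.0337% of all genes (6 genes), and 1 member had an unadjusted p below 0.05, beside 6.20% of all genes. That member was Rgs5, with a mean of 51.3 ± 6.22 CPM (SD, n = 10) in Old PF4 against 61.4 in Old Veh. Of 10 Old PF4 mice 9 were below the Old Veh median and 2 were below every Old Veh mouse. The log2 fold change was -0.25 (standard error 0.071, unadjusted p = 0.000835), which did not pass over all genes (adjusted p = 0.280), and it lay between -0.29 and -0.22 with each library left out. Library numbers were 1 to 12 in Old Veh and 13 to 23 in Old PF4, so library order and PF4 cannot be told apart in Old mice, and with the number in the fit Rgs5 was at -0.080 (unadjusted p = 0.338). The Old Veh mice are the same animals as in the age comparison above, so the 2 Rgs5 values are not independent. The other 9 members lay between -0.21 (Myh11) and 0.035 (Higd1b), with Acta2 at -0.18 (95% interval -0.65 to 0.29). DESeq2 also called 0 members.

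In Young mice 0 of 10 members were called or had an unadjusted p below 0.05. Among all genes edgeR called 0 (0%) and DESeq2 called 0, with 213 (1.20%) at an unadjusted p below 0.05 in edgeR. Rgs5 was at 0.019 (95% interval -0.11 to 0.15) and Acta2 at -0.020 (interval -0.43 to 0.39). The difference between the PF4 effects at the 2 ages was tested as an interaction. It was -0.27 for Rgs5 (standard error 0.097, unadjusted p = 0.00727), the 1 member of 10 with an unadjusted p below 0.05, beside 3.98% of all genes, and no gene passed adjustment (0 of 17778, and 0 in DESeq2). For Acta2, Myh11 and Tagln the interaction was -0.16, -0.31 and 0.023, with intervals from -0.78 to 0.46, -0.93 to 0.32 and -0.64 to 0.68.

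Whether the 10 genes varied together from mouse to mouse was examined on log2 CPM centred on the group means, over 47 libraries, with permutation tests of 100000 resamples adjusted over the 45 pairs. Of these 17 passed for Pearson's r, all of them positive. Among them, Pdgfrb with Notch3, Notch3 with Tagln, and Anpep with Acta2 and with Myh11 did not pass for Spearman's rho. Their adjusted permutation p for rho was 0.0526, 0.0668, 0.0526 and 0.0604. Without the 2 libraries farthest from the median, r was 0.27 for Pdgfrb with Notch3 and 0.20 for Notch3 with Tagln. Acta2 and Myh11 had r = 0.82 and Spearman's rho = 0.81, Acta2 and Tagln had r = 0.81 and rho = 0.79, and Myh11 and Tagln had r = 0.77 and rho = 0.76. For each of these pairs both permutation p-values were 1e-05, the smallest that the resamples can give (adjusted 6.43e-05 for r and 7.5e-05 for rho). Leaving out the 2 libraries farthest from the median gave r of 0.80, 0.78 and 0.75. Within the other 39 libraries r was 0.81, 0.89 and 0.77. Within the 8 of low depth, values were not centred on the group means. There r was 0.85, 0.60 and 0.63, and 0 of the 45 pairs passed. Those 8 were 5 Old and 3 Young, so their r values include differences between groups. Vtn, a pericyte product, had values of the same size with the contractile genes, with r = 0.84 to Acta2 (rho = 0.79), 0.79 to Tagln and 0.76 to Myh11. Rgs5 passed with no other member, and its r values ran from -0.26 (Notch3) to 0.25 (Myh11). Higd1b and Abcc9 passed with none either, at 18 and 49 reads at the median.

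The same test against 6 lists of other cell types, 60 relations in all, passed in 21. Vtn followed the fibroblast and meninges list with r = 0.94 (rho = 0.91, permutation p = 1e-05 and adjusted 4e-05 for r). Its r was 0.93 without the 2 farthest libraries, 0.95 in the other 39 and 0.88 in the 8, where values were not centred. Acta2, Myh11 and Tagln had r = 0.76, 0.74 and 0.78 with that list and 0.69, 0.71 and 0.71 with the endothelial list. Pdgfrb and Anpep passed with both lists as well, at r of 0.47 and 0.62 for fibroblasts and 0.54 and 0.64 for endothelium. These 6 members also passed with the perivascular macrophage list. Vtn alone passed with the choroid plexus list (r = 0.51), Vtn and Tagln passed inversely with the hippocampal neuron list (r = -0.48 and -0.35), and none passed with the red cell list. Rgs5, Notch3, Higd1b and Abcc9 passed with no list. All of these relations rest on the same 47 libraries, and a member and a list measured in 1 library share its tissue sample and its total.

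The length index was related to Pdgfrb (r = 0.65, rho = 0.47, permutation p = 2e-05 for r) and to Notch3 (r = 0.61, rho = 0.41, permutation p = 2e-05 for r), with adjusted permutation p of 0.00505 and 0.0129 for rho. For Rgs5 r was -0.27 and rho 0.033 (permutation p = 0.0693 and 0.826). Tagln, Acta2 and Myh11 passed too over these 10 relations (r of 0.51, 0.36 and 0.35, adjusted permutation p of 0.000433, 0.0329 and 0.0329), and without the 2 farthest libraries Pdgfrb was at 0.44, Notch3 at 0.41, Tagln at 0.45, Acta2 at 0.36 and Myh11 at 0.43. In the 39 deeper libraries r was 0.72 for Pdgfrb and 0.67 for Notch3. In the 8, where values were not centred on the group means, it was 0.35 and -0.20.

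**Figure D4:**
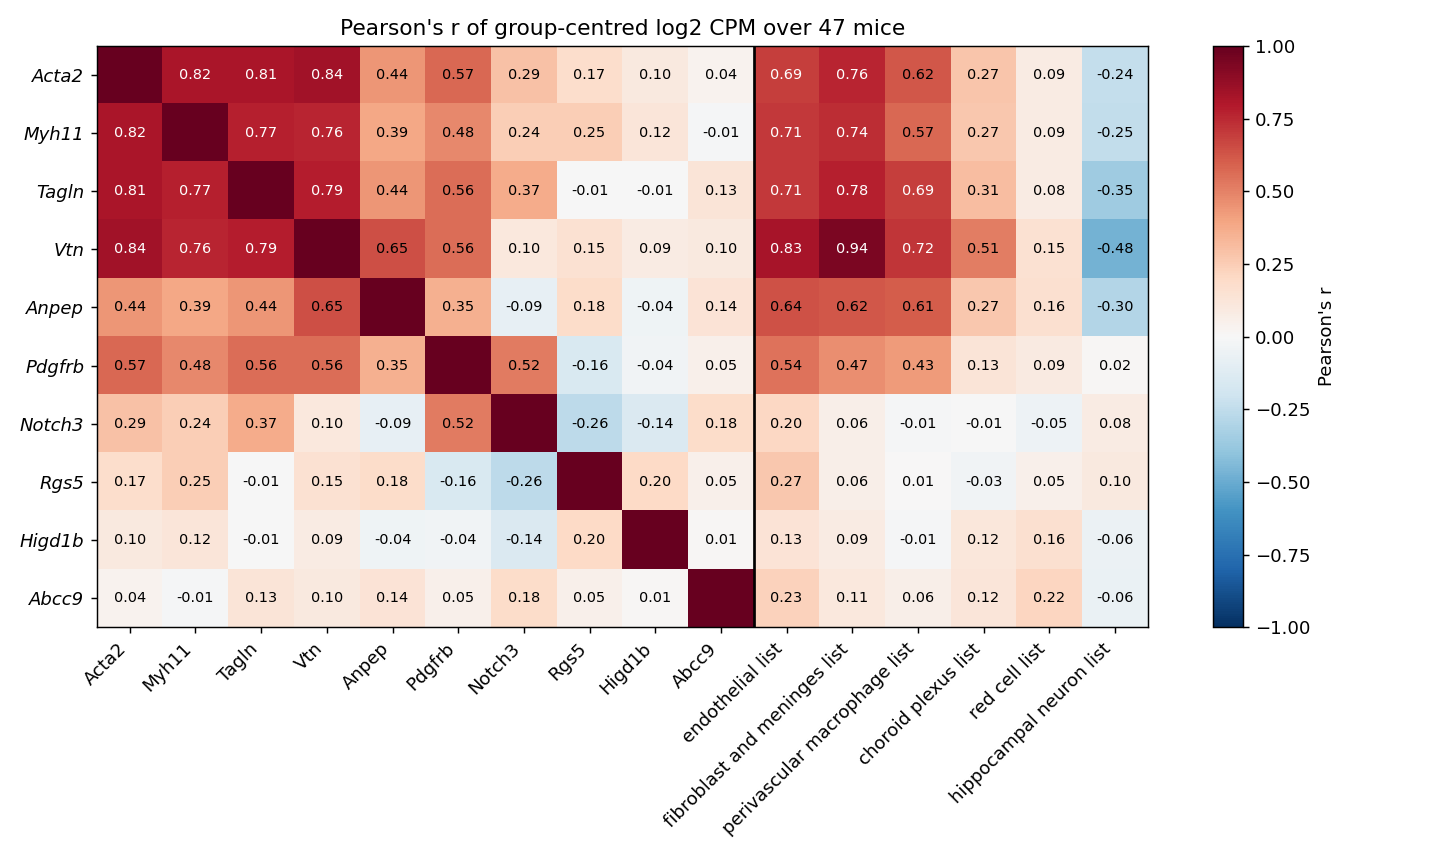
Pearson's r of group-centred log2 CPM over 47 mice between the 10 genes, and to the right of the black line between each gene and the mean log2 CPM of 6 marker lists. Acta2, Myh11, Tagln and Vtn form a block at 0.76 to 0.84 that also follows the fibroblast and endothelial lists, and the rows of Rgs5, Higd1b and Abcc9 stay at or below 0.27.

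The genes whose levels were most like those of a member, by Pearson's r over the 47 libraries among the 17778 tested, are given as a description. Closest to Acta2 were Vtn (0.84), Gjb2 (0.84) and Vstm4 (0.82), and to Myh11 they were Acta2 (0.82), Gjb2 (0.81) and Vstm4 (0.78). Gjb2 encodes connexin 26, a gap junction protein of the leptomeninges. Tagln had Gm48529 (0.98), Acta2 (0.81) and Aldh1a2 (0.80), the retinoic acid synthesising enzyme that meninges express. Vtn had Ptgds (0.93), the prostaglandin D synthase abundant in leptomeninges, then Slc6a13 (0.93) and Fmod (0.92), both in the fibroblast and meninges list. Pdgfrb had Zcchc24 (0.77), Ltbp4 (0.77) and Ptprb (0.76), the last an endothelial phosphatase, and Anpep had Dpp4 (0.69), Foxc2 (0.67) and Arhgap29 (0.67). The others had neighbours that are not known vascular markers. For Rgs5 these were Pgm2l1 (0.64), Mapk1ip1 (0.62) and Mybph (0.61), and for Notch3 they were Cds2, Rbfox2 and Ylpm1 (each 0.81). Higd1b had Kazald1 (0.65), Mesd (0.63) and Gm37254 (0.63), and Abcc9 had Gm16133 (0.60), Gadd45b (0.55) and Zfp418 (0.54).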

How the data were processed

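Hippocampal RNA of 47 mice was sequenced after Smart-Seq2 amplification and Nextera XT tagmentation, which do not mark strand. The deposited table holds the authors' counts of reads for each gene, as whole numbers that were not normalized. Per the labels' processing notes they used Trim Galore 0.3.7, STAR 2.5.3a, DESeq2 and GRCm38, and the paper states that libraries of very low coverage had been excluded. The counting program and annotation are not given in the sources used here.

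Counts of 35486 genes were read as deposited, and 0 rows lacked a name. Samples were grouped by the labels. In edgeR 4.0.16 (R 4.3.3), all 4 groups were fitted together with TMM factors, filterByExpr (17778 genes kept) and glmQLFTest, and DESeq2 1.42.0 was an alternative. A standard error is the size of the log2 fold change over the square root of F. Log2 CPM used a prior count of 2. p-values measure the spread between mice. The edgeR comparison of Old against Young over both treatments was also run on counts simulated from the fitted spread with known fold changes. The other steps were not tested in this way. No pair of libraries of the same group agreed within sampling noise (chi-square per gene of at least 1.71), and pairs across groups were not compared.

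Positions came from GENCODE M21 and promoters from RefSeq. The tables at hand did not cover the promoters of Tagln, Myh11, Higd1b and Pdgfrb. Marker lists covered further pericyte and smooth muscle genes, recruitment and Notch signalling, SRF and myocardin, endothelial, fibroblast and meninges, choroid plexus, red cell, perivascular macrophage and hippocampal neuron genes. The members, lists and tests were chosen with earlier results of these data known. The genes named are the members, every listed gene that was called, the 2 most abundant genes of each list, the 3 genes most like each member and genes that overlap a member. Kcnj8, Cspg4, Pdgfb and Myocd are named outside this rule, chosen after their values were seen. The length index used 17666 genes whose longest transcript is known (99.4%), with at least 4594 bases against at most 2006. Alternatives were DESeq2, its size factors, no filter, at least 1 CPM in 10 libraries, the compared groups alone, a replicate block, leaving out each library or the 8 of low depth, and covariates for marker lists, library number and (added after the data were seen) the length index.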

Additional observations from a re-analysis of the deposited data

Results flagged for a closer look

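In Old PF4, the only group small enough for this test of outlying samples, replicate 9 stood apart at the high end in 3 of the 10 genes. Its Vtn level was 78.0 CPM with the next mouse at 53.7, its Acta2 level 28.03 with the next at 17.0, and its Anpep level 4.72 with the next at 2.62. Both ends of each gene were looked at, chance marks about 1 group in 20, and Vtn, Acta2 and Anpep vary together (r of 0.44 to 0.84), so the 3 marks are not independent. The same library had the highest summed fibroblast and meninges list of its group (314 CPM) and the highest perivascular macrophage list (18.0 CPM), and its choroid plexus list stood at 2179 CPM against a group median of 65.9. Their part in these values was not tested. Without this library 4 of 10 members were called in Old against Young over both treatments, beside 898 of all genes in place of 838. They were Acta2 at -0.70 (edgeR adjusted p = 0.00263), Tagln at -0.65 (0.0108), Myh11 at -0.53 (0.0412) and Rgs5 at 0.16 (0.0492).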

How the results depend on the processing

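Members called in Old against Young over both treatments numbered 2 as reported and 3 with DESeq2, with its size factors or with the endothelial list. The count was 1 with no count filter or without the 8 libraries of lowest depth, 0 with the choroid plexus list, the fibroblast list or the library number, 4 with the replicate block, 5 with the length index, and 1 to 4 with each library left out. Acta2 was called in 8 of 11 alternatives, Tagln in 6, and Rgs5, not called as reported, in 5 and in 12 of the 47 fits that left out 1 library (0.14 to 0.17). Myh11, called in 2 of 11, was also called without Young Veh replicate 4, Young PF4 replicate 11 or 12, Old Veh replicate 2 or 10, or Old PF4 replicate 9. Members called in Old Veh against Young Veh were 1, but 0 without the 8 libraries or with the library number and 2 with the length index, which added Tagln (-0.70). All genes called there were 492 as reported, 176 without the 8 libraries, 0 with the library number and 901 with the length index, and over both treatments 838, 437, 0 and 1398. Over both treatments all genes called were also 956 with DESeq2, 830 with its size factors, 813 with the endothelial list, 746 with no filter, 658 with the choroid plexus list, 601 with the fibroblast list, 873 with the replicate block, and 674 to 1092 with each library left out. In Old PF4 against Old Veh 6 genes were called as reported, 24 with DESeq2, 10 with the replicate block or the choroid plexus list, 0 with the groups alone, without the 8 libraries, with the library number or with the length index, and 0 to 20 with each library left out. The interaction called 1 gene with no filter. Within the 8 libraries, on values not centred on the group means, 0 correlations passed, among members or with lists.

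Signs turned in these values, none of which was called in either direction unless stated. In Old Veh against Young Veh the fibroblast list gave 0.024 for Pdgfrb, 0.14 for Vtn, 0.092 for Anpep and 0.063 for Myh11, the choroid plexus list gave 0.0054 for Vtn, the library number gave -0.092 for Rgs5 (called as reported) and -0.34 for Higd1b, and leaving out 1 library gave -0.034 to 0.10 for Higd1b. Over both treatments the library number gave -0.19 for Rgs5 and -0.22 for Higd1b, Vtn was at 0.016 with the choroid plexus list and 0.11 with the fibroblast list, and Notch3 at -0.013 with the length index. In Young PF4 against Young Veh, Rgs5 was at -0.0040 with the replicate block, -0.0051 without the 8 libraries and -0.014 to 0.044 with each library left out. The cause of these changes was not tested. Same replicate numbers did not mark pairs (median correlation 0.0074 over 66 pairs, against -0.025 for other pairs, with 5 of 47 libraries closest to their own number), so the replicate block is a check only.

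The limits are few reads in Higd1b and Anpep, wide spread between mice in the contractile genes, and contrasts of age, and of PF4 in Old mice, that cannot be told apart from library order.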

Other observations

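Among 20 genes of the signals that recruit and instruct mural cells 1 was called over both treatments, beside 4.71% of all genes tested (1.41% lower). It was Hey2, a Notch target of arterial cells, at a log2 fold change of -0.44 in Old against Young (edgeR adjusted p = 0.0391). The median of the list was -0.029, against -0.0041 over all genes, and 17 of 20 were below 0, against 52.0% of all genes. Hey1 and Pdgfra, the most abundant of the list, were at -0.0060 and -0.026, and Pdgfra mainly marks oligodendrocyte precursors and fibroblasts. Pdgfb, the endothelial ligand of Pdgfrb, was at -0.027 (adjusted p = 0.832) and was named after its value was seen. In Old PF4 against Old Veh 7 of the 20 were below 0, against 46.02% of all genes, and 0 were called, beside 0.0337% of all genes.

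Of 7 tested genes of the SRF and myocardin list of transcription regulators, 0 were called over both treatments, beside 4.71% of all genes. Of the 7, 6 were below 0, against 52.0% of all genes, and the median was -0.085, against -0.0041. The most abundant, Mrtfb and Mef2c, were at 0.13 (adjusted p = 0.206) and -0.10 (adjusted p = 0.524), and both are also neuronal. Myocd, the smooth muscle coactivator, had only 130 reads over all libraries and was not tested. It too was named after its count was seen.

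Hippocampal neuron genes had a median of 0.015 over both treatments, with Snap25 at 0.10 and Slc17a7 at 0.015. Of the 7, 0 were called, beside 4.71% of all genes, and summed levels were 4006 to 5663 CPM in all groups. Red cell genes were scarce, with 2 of 5 tested: Alas2 at 0.32 (adjusted p = 0.123) and Hbb-bs at 0.18 (adjusted p = 0.861).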
